A study of Mus musculus with 8 samples.

Results

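Rbm3 and Cirbp are the mouse genes of RNA-binding motif protein 3 and cold-inducible RNA-binding protein (CIRP), and they were followed here as 2 of the 23597 genes in a table of messenger RNA levels from dry eye corneas. They were taken by their gene symbols and were chosen by the difference of Rbm3 between the groups, since earlier results of these data had shown its FPKM values to be higher with ICI 118551. Their levels in the 2 groups are therefore given as a description, with no test. RNA-seq was made from 8 samples of corneas, each pooled from 4 corneas after 14 days of scopolamine, which blocks muscarinic receptors, lowers tear secretion and is used to make dry eye in mice. The 4 samples called ICI came from mice that were also given ICI 118551, a selective blocker of the β2-adrenergic receptor, and the 4 samples called Scop from scopolamine-injected mice without it. All 8 samples shared the scopolamine injections. The sources used here give no strain, sex or age of the mice, and no cornea without dry eye was analysed here. How mice were assigned to pools is not stated in the labels, so spreads and tests cover these 8 samples only.

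RBM3 and CIRP are small proteins with a single RNA recognition motif and a glycine- and arginine-rich tail. Their messenger RNAs are known to rise when cells are cooled mildly and to fall when cells are warmed, the opposite of the heat shock genes driven by HSF1. Both proteins bind many messenger RNAs and are known to affect their stability, translation and choice of polyadenylation site. CIRP is also known to bind transcripts of the circadian clock, and, when released from cells, to act as an inflammatory signal through Toll-like receptor 4.

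Rbm3 lies on the minus strand of chromosome X (8138975 to 8145880, build mm10, RefSeq GRCm38.p6) and Cirbp on the plus strand of chromosome 10 (80165990 to 80172786). Both are protein-coding, with 5 and 7 curated RefSeq transcripts, and the table gives 1 value per gene, so isoforms could not be told apart. The promoter table used here held 2 start sites of Cirbp. The stretch before the more upstream of them (80167839) is shown because the letters TCCCCGCC, known in the Cirbp promoter as the mild cold-responsive element, occur in it and are in capitals. It runs 5′ to 3′ on the plus strand over chr10:80167589-80167777, 189 bases from RefSeq (GRCm38.p6). The bases shown end where the next Cirbp exon annotated in GENCODE M21 begins, short of the start site at 80167839. The stretch lies inside the span of the gene given above, which begins further upstream with an exon of a longer transcript, so it is intronic for that transcript and upstream only of the start site at 80167839.
Cirbp, before the start site at 80167839: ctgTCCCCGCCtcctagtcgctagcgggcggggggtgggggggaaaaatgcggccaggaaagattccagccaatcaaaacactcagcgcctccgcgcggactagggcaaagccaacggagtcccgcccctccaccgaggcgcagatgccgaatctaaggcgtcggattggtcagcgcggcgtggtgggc
The element started 247 bases before the start site (chromosome 10, 80167592 to 80167599), and 5.38% of all 32851 promoter windows of 300 bases held these letters on either strand. The GC box, GGGCGG, occurred 3 times in the Cirbp window, on both strands, with 2 wholly in the stretch shown, and was present in 35.7% of all windows. CCAAT occurred 2 times, once on each strand, against a share of 37.4% of windows with at least 1 match. The letters of the cAMP response element, TGACGTCA, of the E-box, CACGTG, and of a heat shock element core, GAANNTTC, were not in this window on either strand, and 1.79%, 7.15% and 7.86% of all windows held them. None of the searched motifs overlapped another in the Cirbp window. G and C made up 65.7% of the bases of the window, against a median of 52.7% over all windows. These matches describe letters only, and the data hold no measurement of binding. Rbm3 had no entry in the promoter table.

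Rbm3 was the more abundant of the pair in every library. Its level, in FPKM (fragments scaled to the length of the gene and the depth of the library), was 86.7, 90.3, 79.1 and 76.2 in ICI replicates 1, 2, 3 and 4, and 65.4, 64.5, 66.3 and 61.1 in Scop replicates 1, 2, 3 and 4. Every ICI library stood above every Scop library, with a gap of 9.87 FPKM between the lowest ICI value and the highest Scop value. The group means were 83.1 ± 6.53 and 64.4 ± 2.30 FPKM (mean ± SD over 4 libraries per group), a ratio of 1.29. On the log2(FPKM + 1) scale the difference was 0.36 (SE 0.06).

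Cirbp differed more between the groups and also more within ICI. It stood at 40.3, 70.2, 50.9 and 43.3 FPKM in ICI replicates 1, 2, 3 and 4, and at 30.9, 32.9, 29.0 and 26.8 FPKM in Scop replicates 1, 2, 3 and 4. The groups again did not overlap, and the gap between them was 7.36 FPKM. The means were 51.2 ± 13.4 and 29.9 ± 2.61 FPKM (mean ± SD over 4 libraries per group), a ratio of 1.71. The log2 difference was 0.73 (SE 0.15), and 0.57 (SE 0.09) without ICI replicate 2, the highest library for both genes. Within ICI the highest Cirbp library was 1.74 times the lowest, against 1.18 times for Rbm3. Within Scop the figures were 1.23 and 1.09 times.

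**Figure D1:**
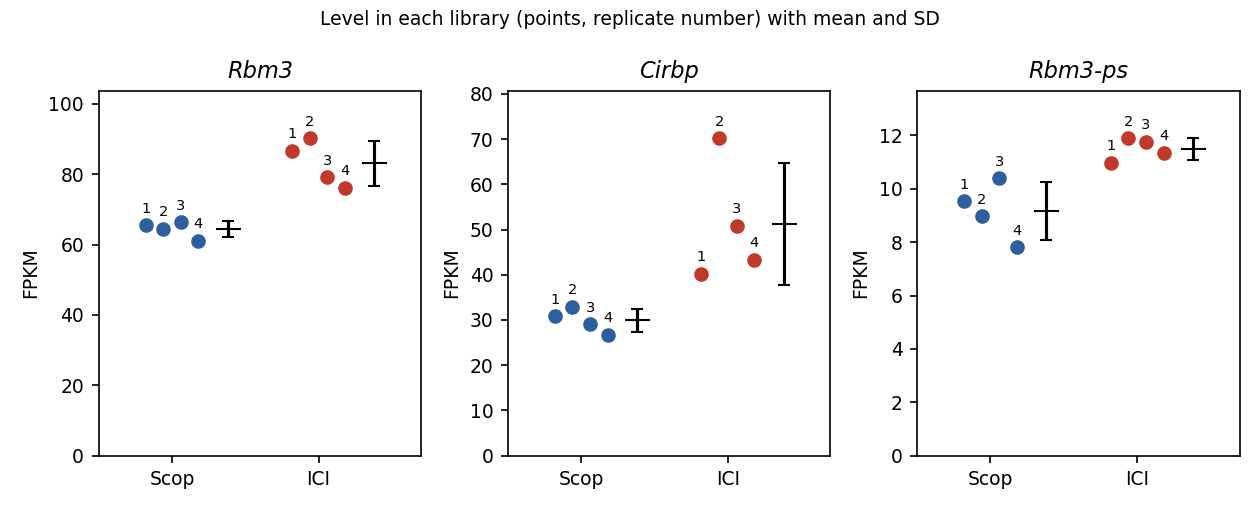
FPKM of Rbm3, Cirbp and the pseudogene Rbm3-ps in the 4 Scop and 4 ICI libraries, with each point numbered by replicate and the mean and SD beside each group. All ICI points lie above all Scop points for the 3 rows of the table, and Cirbp spreads from 40.3 to 70.2 FPKM within ICI.

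In 318 of the 12100 genes whose mean reached 0.5 FPKM, or 2.63%, the lowest ICI value exceeded the highest Scop value, and Rbm3 and Cirbp were among them. The share bears on how common such a pattern was in these libraries, and nothing is read from it here because this contrast chose the genes. On the log2 scale 10 of the 12100 genes had a larger positive difference than Cirbp, 3 of them the ribosomal RNA-associated loci described below, and 169 had a larger one than Rbm3. In limma's test over all 12100 genes, 0 genes were higher and 0 lower in ICI at a Benjamini-Hochberg adjusted p under 0.05, a share of 0% in each direction. Every gene list below therefore also has 0 genes passing, which says nothing particular about that list. Without adjustment 552 genes (4.56%) were higher and 903 (7.46%) lower at p under 0.05. Limma-voom on fragments recovered from the FPKM steps also called 0 and 0 after adjustment, and 516 and 935 without it.

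**Figure D2:**
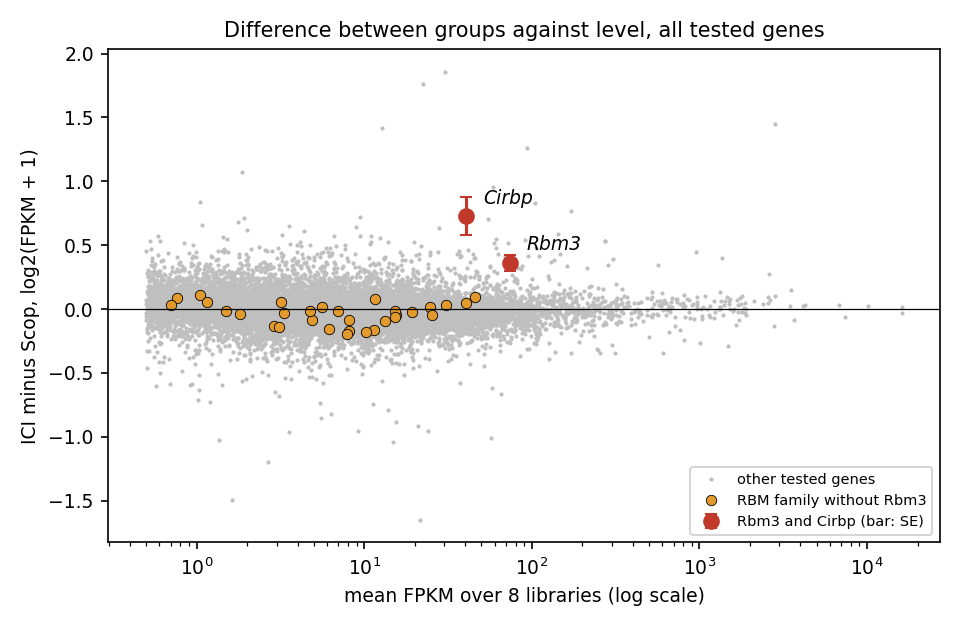
ICI minus Scop difference in log2(FPKM + 1) against mean FPKM (log axis) for the 12100 tested genes (grey), the 31 tested RBM family genes other than Rbm3 (orange) and the members with limma's SE (red). Cirbp at 0.73 and Rbm3 at 0.36 lie above all 31 other RBM genes, and this contrast chose the pair.

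The values rested on many fragments. Rbm3 was counted with 10287 to 12805 fragments in the ICI libraries and 7891 to 9394 in Scop, and Cirbp with 2996 to 5254 and 1826 to 2449. Counting error alone would give a coefficient of variation of 1.13% for Rbm3 and 2.34% for Cirbp in the library with the fewest fragments. The coefficients of variation over replicates were 7.86% in ICI and 3.58% in Scop for Rbm3, and 26.3% and 8.72% for Cirbp, so the spread between samples exceeded the counting error of either gene in both groups. The library totals ran from 34354316 to 39885772 fragments.

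The ratio of Rbm3 to Cirbp within a library does not move when all genes of that library are multiplied by one factor, as in scaling for depth. As deposited, the log2 difference of the ratio between the groups was -0.38. Under quantile normalisation, which is no such factor, it was -0.36. That value was taken on log2(FPKM + 1) and the deposited one without the added 1, so their gap is not due to normalisation alone. The ratio was 2.15, 1.29, 1.55 and 1.76 in ICI replicates 1, 2, 3 and 4, and 2.12, 1.96, 2.28 and 2.28 in Scop replicates 1, 2, 3 and 4. ICI replicate 1 fell among the Scop libraries, and the other 3 ICI libraries lay below all of Scop. The mean ratio was 1.69 ± 0.365 in ICI and 2.16 ± 0.154 in Scop (mean ± SD over 4 libraries per group), with ICI the lower. The order of the libraries was not the same for both genes. In ICI, Rbm3 was highest in replicate 2, followed by 1, 3 and 4, and Cirbp was highest in replicate 2, followed by 3, 4 and 1. Scop replicate 4 was the lowest of all 8 libraries for both genes.

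**Figure D3:**
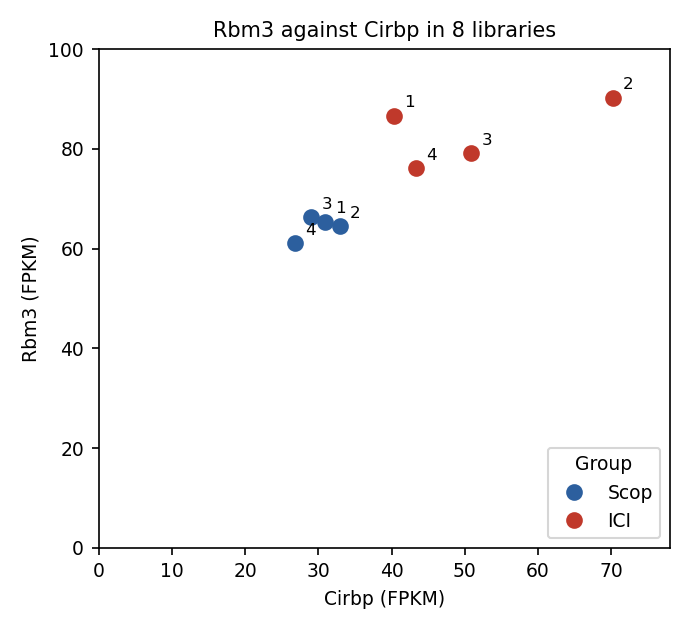
Rbm3 against Cirbp, both in FPKM, in each library, numbered by replicate (red ICI, blue Scop). The Scop libraries sit close together at 26.8 to 32.9 FPKM of Cirbp, and the ICI libraries spread along the Cirbp axis, with ICI replicate 1 at a high Rbm3 and the lowest Cirbp of its group.

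A processed pseudogene shares sequence with Rbm3, and the span of an antisense RNA overlaps that of its gene. The pseudogene Rbm3-ps (chromosome 1, 150264926 to 150266073) matched an Rbm3 transcript over 465 bases at 99.4% identity in the GENCODE transcripts, so fragments of Rbm3 could have been assigned to it. It stood at 10.97, 11.9, 11.8 and 11.3 FPKM in ICI replicates 1, 2, 3 and 4, and at 9.54, 8.98, 10.4 and 7.81 in Scop replicates 1, 2, 3 and 4, and its groups did not overlap either. Its fragments came to between 4.05% and 5.01% of those of Rbm3 in every library. With the fragments of both rows added, the Rbm3 difference was 0.36 (SE 0.06) on the log2 scale. The other transcripts with a match of at least 100 bases at 95% identity belonged to 3 predicted genes, Gm10156, Gm13624 and Gm48583, which had no row under these names, and to Phospho2, a phosphatase gene, at 11.6 FPKM in ICI and 12.3 in Scop. Cirbp had no such match.

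Rbm3os, the antisense RNA that overlaps the 5′ end of Rbm3 (chromosome X, 8145427 to 8147964), was low. It was counted with 6 to 20 fragments per library, at most 0.253% of the Rbm3 fragments, and its groups overlapped (0.334 ± 0.103 FPKM in ICI against 0.371 ± 0.205 in Scop, n = 4 in each group). No source used here says whether the counting used strand.

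Among 38 genes, the numbered RBM genes together with Cirbp, Rbm3 had the highest mean level over the 8 libraries (73.7 FPKM) and Cirbp the third (40.5). Rbm7, a subunit of a nuclear exosome adaptor, lay between them at 45.5 FPKM, and Rbm5, a splicing regulator, just below Cirbp at 40.4. Of the 36 RBM genes other than Rbm3, 31 were tested and 0 passed in either direction. Their median log2 difference was -0.02, against -0.02 over all 12100 tested genes, of which 5391 were positive and 6709 negative. The 31 RBM genes had 11 positive and 20 negative values. None reached the difference of Rbm3, and nothing is read from this because that difference chose the pair. The 4 of the 31 with the smallest p all had negative values. These were Rbm10, a splicing regulator (-0.16, SE 0.06), Rbm14, a paraspeckle protein gene (-0.17, SE 0.07), Rbm28, a nucleolar protein gene (-0.19, SE 0.09), and Rbm15b, of the m6A writer complex (-0.18, SE 0.09). Rbmx and Rbmxl1, which resemble Rbm3 and Cirbp in having 1 RNA recognition motif and a long tail, had 0.13 (SE 0.09) and -0.12 (SE 0.07). Rbmx2, of the spliceosome, had 0.01 (SE 0.11), and 0 of these 3 passed.

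Wider groups of RNA-binding proteins are described by sign and median, since 0 of all 12100 tested genes passed. Of 28 genes of hnRNPs and related proteins, which package and splice pre-mRNA, 0 passed, 20 had negative values and the median was -0.04. Hnrnpab (205 ± 10.3 FPKM in ICI and 230.5 ± 11.4 in Scop), Hnrnpa2b1 and the mRNA-stabilising Elavl1 had their highest ICI value below their lowest Scop value. They were 3 of the 28 genes, against a share of 4.36% of all 12100 tested genes. Of 6 tested cold-shock domain genes, such as Ybx1 and Ybx3, and of 18 tested SR splicing factor and kinase genes, 0 passed, with medians of -0.05 and -0.02. Clk3, a kinase of SR proteins, had -0.11 (SE 0.06).

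Heat shock genes, many of which respond to temperature in the direction opposite to Rbm3 and Cirbp, had mostly negative values. Body temperature and time of day at sampling are not given in the labels, and a part of either was not tested. Of 21 tested genes 0 passed the test over all genes, 20 were negative and 1 positive (Dnajb1, 0.08, SE 0.07, named after its value was seen). Over all 12100 tested genes 6709 were negative. The median was -0.19 against -0.02 over all tested genes. Hspb8, a small heat shock protein gene, stood at 4.66, 3.84, 3.54 and 5.38 FPKM in ICI replicates 1, 2, 3 and 4, and at 7.65, 6.61, 6.67 and 6.78 in Scop, and its groups did not overlap (-0.58, SE 0.11, limma adjusted p = 0.154). Hsf1, the gene of the heat shock transcription factor, was at 8.73 ± 0.589 FPKM in ICI and 10.3 ± 0.489 in Scop (n = 4 in each group), again without overlap. Fkbp4, an HSP90 co-chaperone gene, was the third without overlap (-0.17, SE 0.06), against a share of 4.36% of all tested genes with every ICI value below every Scop value. Hsp90aa1, the inducible HSP90 gene, had -0.28 (SE 0.07) with overlapping groups. The groups also overlapped for Hspa1a (-0.45, SE 0.20), Hspa1b (-0.09, SE 0.07) and Hspb1 (-0.18, SE 0.11). In the 7 other scalings, pseudocounts and covariate fits run on the lists, and with each of the 8 libraries left out, the heat shock median stayed between -0.22 and -0.15.

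**Figure D4:**
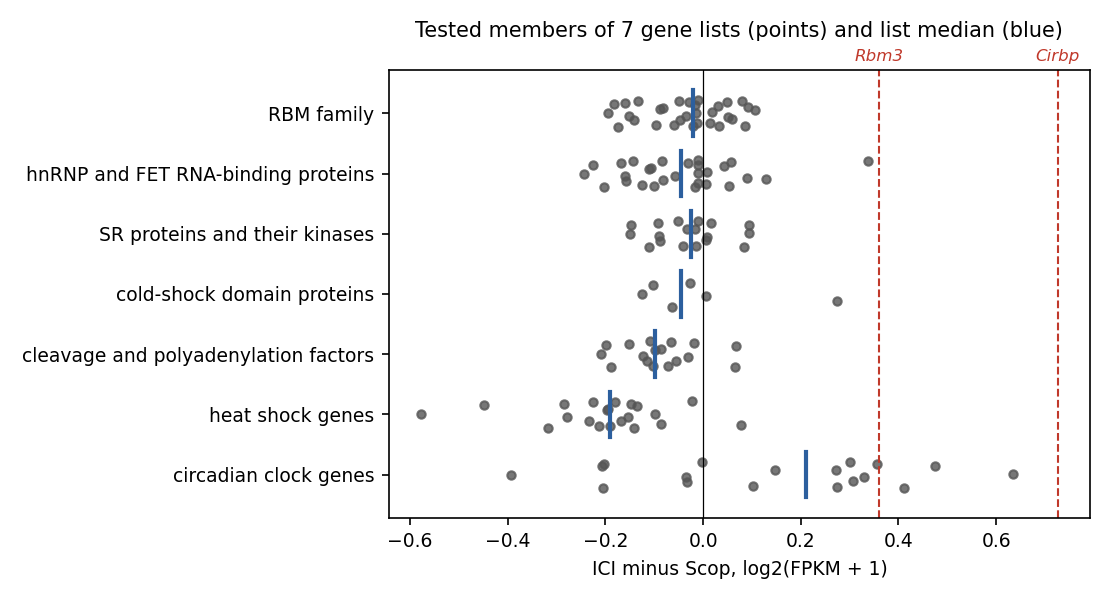
ICI minus Scop difference in log2(FPKM + 1) for each tested gene of 7 lists (points), with the list median (blue bar) and the differences of Rbm3 and Cirbp as dashed lines. Heat shock genes lie mostly left of 0 and clock genes on both sides, and no point of the 7 lists reaches the line of Cirbp. This contrast chose the pair.

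Clock genes, some of whose transcripts CIRP is known to bind, had values on both sides. Of 18 tested genes 0 passed over all genes, 11 were positive and 7 negative, and the median was 0.21. Tef, Per2, Per3 and Cry2 had no overlap between the groups, 4 of 18 genes, against the share of 2.63% over all tested genes. Dbp, a transcription factor gene of the clock output, was at 22.4, 40.2, 35.9 and 39.2 FPKM in ICI replicates 1, 2, 3 and 4, and at 18.8, 17.2, 22.5 and 28.1 in Scop. Like Cirbp, it was highest in ICI replicate 2 and lowest within ICI in replicate 1. Clock, the activator gene whose messenger RNA is a known CIRP target, was at 14.6 ± 1.22 FPKM in ICI and 17.0 ± 1.23 in Scop (n = 4 in each group; -0.21, SE 0.07), which did not pass.

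Genes known to act on or with the pair were close between the groups. Of 9 tested genes 0 passed, and the median was -0.05. Sp1, a factor known to bind the cold-responsive element of Cirbp, was at 19.4 ± 0.707 FPKM in ICI and 19.1 ± 1.09 in Scop, and Rtn3, whose translation RBM3 is known to raise in neurons, at 55.0 ± 2.26 and 53.2 ± 1.34 (n = 4 in each group). Tnpo1, the importin that carries CIRP into the nucleus, had groups that did not overlap, with ICI the lower (-0.11, SE 0.05). It was 1 of the 9 genes, against a share of 4.36% of all tested genes with this pattern. Of 17 cleavage and polyadenylation genes 0 passed and 15 were negative, against 6709 of all 12100 tested genes, with a median of -0.10. Cstf2, whose protein binds downstream of the poly(A) site (-0.19, SE 0.05), Cpsf2 and Pabpc1 likewise had ICI below Scop without overlap. These were 3 of the 17 genes, against the same share of 4.36%. Of the receptors of extracellular CIRP, Tlr4 was at 3.43 ± 0.331 FPKM in ICI and 3.43 ± 0.223 in Scop, its co-receptors Ly96 and Cd14 had 0.24 (SE 0.12) and -0.27 (SE 0.13), and Trem1, at 0.0281 FPKM in ICI and 0.00704 in Scop, was too low to test. Of 8 temperature-sensing channels only Trpv4, a warmth- and osmolarity-gated channel gene, had a mean of at least 0.5 FPKM (8.07 ± 0.621 in ICI and 7.41 ± 0.784 in Scop, n = 4 in each group). Trpm8, the cold sensor of corneal nerve endings, whose transcripts sit mainly in nerve cell bodies outside the cornea, had a mean of 0.00199 FPKM in ICI and was listed at 0 in Scop.

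The genes most like each member were ranked by Pearson's r of log2(FPKM + 1) over the 8 libraries, among 7183 other genes averaging 5 FPKM or more, as a description. Much of this likeness is the gap between the groups. Cirbp was the 30th most like Rbm3 (r = 0.891), and Rbm3 the 45th most like Cirbp. Among those most like Rbm3 were Arg1, the arginase gene (r = 0.968), Nab2, a corepressor of EGR factors, Tmem62, the protease gene Prss23 and Psca, a surface protein gene (r = 0.950). The 6 most like Cirbp were Plgrkt, a plasminogen receptor gene (r = 0.978), Inpp5k, a phosphoinositide phosphatase gene, St6galnac1, a sialyltransferase gene of mucin glycans, Pdk1, a kinase of pyruvate dehydrogenase, Pspc1, a paraspeckle protein gene, and Hapstr1 (r = 0.955). Pspc1 followed Cirbp closely, at 8.77, 14.8, 12.2 and 8.91 FPKM in ICI replicates 1, 2, 3 and 4, and at 7.68, 7.78, 5.26 and 6.14 in Scop. The genes named here had every ICI value above every Scop value, which the ranking favours.

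With the group means subtracted, the pair was less alike, and each member had other close genes. Over the 8 libraries r between Rbm3 and Cirbp was then 0.532, which placed Cirbp 644th among the genes most like Rbm3. Among those most like Cirbp was Ggact, a gamma-glutamylamine cyclotransferase gene (r = 0.976). It stood at 4.93, 7.71, 6.47 and 5.50 FPKM in ICI replicates 1, 2, 3 and 4, and at 5.66, 6.22, 5.59 and 5.04 in Scop. Ggact shared the order of Cirbp within ICI, replicate 2 above 3, 4 and 1, and overlapped between the groups. Ube2d2a, Rapgef5, Fam204a and Alox12 followed (r = 0.959 to 0.943). For Rbm3 the closest was Amotl2, a Hippo pathway scaffold gene, at 45.9, 45.4, 38.5 and 34.9 FPKM in ICI replicates 1, 2, 3 and 4, and at 35.3, 33.8, 35.8 and 32.2 in Scop (r = 0.962). Prss8, a channel-activating protease gene of epithelia, Rnf223, Ogfr, Phf11d and Slfn2 were next (r = 0.960 to 0.941). High r values can arise among unrelated genes when the closest of 7183 are picked over 8 libraries, so these lists are a description.

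Markers of the corneal epithelium were abundant in every library, with a summed level of 32648 to 34700 FPKM in ICI and 32688 to 37103 in Scop over 5 of 5 genes. The summed level of 7 stromal markers was 1609 to 2197 FPKM in ICI and 576 to 1918 in Scop, where 576 was Scop replicate 3. In bulk tissue, fewer cells of a type and less RNA per cell cannot be told apart. Without Scop replicate 3 the differences were 0.38 (SE 0.06) for Rbm3 and 0.71 (SE 0.16) for Cirbp, and with the stromal marker score as a covariate 0.36 and 0.71. Summed immune markers (7 genes) were at 59.1 to 66.8 FPKM in ICI and 49.6 to 74.2 in Scop, endothelial markers (4 genes) at 56.1 to 142 and 37.2 to 92.1, and Schwann cell markers (4 genes) at 1.35 to 2.41 and 1.84 to 3.20. The conjunctival markers Krt13 and Krt4, 2 of 3 listed, summed to 1099 to 1172 FPKM in ICI and 1026 to 1725 in Scop, where 1725 was again Scop replicate 3. Krt4 had a log2 difference of -0.34 (SE 0.14), with overlapping groups. Lens, blood and pigment markers summed to at most 0.398, 7.14 and 0.817 FPKM, and no marker in the table was at 0 in all libraries. The part of these markers in the results was not tested beyond the stromal score.

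The loci Gm26917, AY036118 and Lars2, which collect fragments of ribosomal RNA, moved with the groups except in Scop replicate 4. Their mean log2(FPKM + 1) was 7.73 to 8.17 in ICI, 5.43, 5.96 and 6.23 in Scop replicates 1, 2 and 3, and 8.19 in Scop replicate 4. In Scop replicate 4, which reached the ICI level in these loci, Rbm3 and Cirbp were at 61.1 and 26.8 FPKM, the lowest of all 8 libraries. With this score as a covariate the differences were 0.44 (SE 0.08) for Rbm3 and 0.89 (SE 0.21) for Cirbp. Only Scop replicate 4 reached the ICI level of the score, so this fit separates score from group mainly through 1 library. A part of ribosomal RNA in the differences was not tested.

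**Figure D5:**
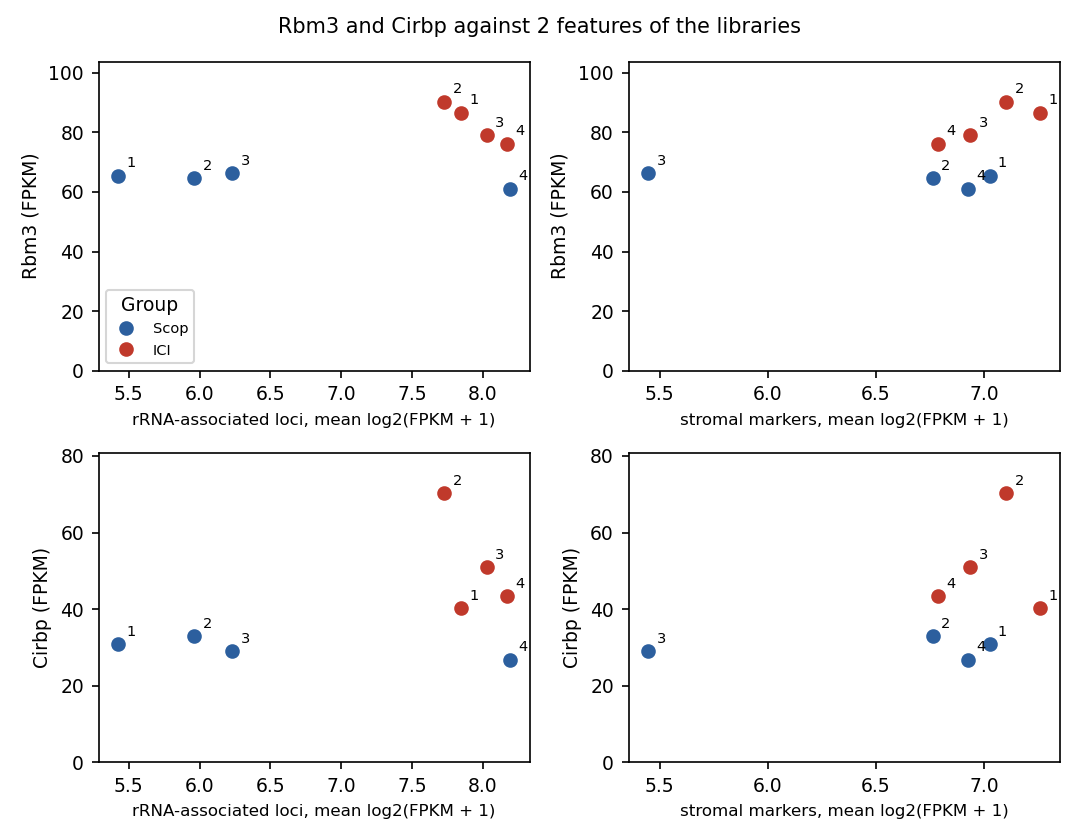
Rbm3 (top) and Cirbp (bottom) in FPKM against the mean log2(FPKM + 1) of 3 ribosomal RNA-associated loci (left) and of 7 stromal markers (right) in each library, numbered by replicate. Scop replicate 4 lies with the ICI libraries on the left axes and Scop replicate 3 far from all others on the right axes, and both stay at the Scop level of Rbm3 and Cirbp. Each is 1 library, and a cause was not tested.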

How the data were processed

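The values are FPKM, made by the authors and deposited in 1 table, with 1 column for each of 8 samples. The tools HISAT2, HTSeq and fastp and the mouse build mm10 are named in the labels, per the submitters' processing notes, while no source used here gives their roles and versions, the annotation, strandedness or any scaling between samples. Columns were matched to samples by title. Whole fragments were recovered from the step sizes of FPKM for 99.71% of genes (68 without), within a relative tolerance of 1e-13 and to within 0.01 of a whole number. The implied gene lengths were 3598 bases for Rbm3 and 1899 for Cirbp.

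Differences and standard errors came from an unpaired limma fit (version 3.58.1, R 4.3.3, eBayes with a variance trend) to log2(FPKM + 1) over the 12100 genes averaging 0.5 FPKM or more, two-sided, with Benjamini-Hochberg adjustment over all of them and a threshold of 0.05. This scale understates fold changes of low genes. Tested on simulated counts of 12004 genes at a constant dispersion of 0.01, it found 13 of 50 genes with a 1.25-fold change and 48 of 50 with a 1.5-fold change, among 200 altered genes, and made 7 false calls. The simulation held no differences in tissue make-up, and real genes could vary more (26.3% for Cirbp in ICI). These shares may therefore not hold for the real libraries, and 0 calls do not show that such changes are absent. No pair of libraries differed by sampling noise alone (lowest chi-square per degree of freedom 12.5). Near copies were sought with blastn 2.17.0 in GENCODE M21 transcripts.

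The members, gene lists and tests were chosen with earlier results of these data known. Named genes were, by rule, up to 4 genes per list with the smallest p and the 6 most like each member by each measure. Rbm7, Rbm5, Rbm3-ps, Rbm3os, Phospho2, Ybx1, Dnajb1, Hspa1a, Hspa1b, Hspb1, Cry2, Clock, Sp1, Rtn3, Trem1 and Trpm8 were added after their values were seen. A few genes chosen by this rule are not reported here. Alternative settings were other pseudocounts (0.1 and 5), other filters (none, or 5 FPKM), 3 scalings, other eBayes settings, array weights, a replicate block, limma-voom on recovered fragments, 2 covariates and leaving out each library. Adding Rbm3-ps fragments and leaving out 2 libraries together were chosen after seeing the data.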

Additional observations from a re-analysis of the deposited data

Results flagged for a closer look

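Neither Rbm3 nor Cirbp had an outlying library in either group by Dixon's test. Over 148 groups of 4 libraries, 7 had 1 library far from the other 3, and chance flags about 1 in 20 groups. Rbmxl1, related to Rbm3, was at 17.1 FPKM in Scop replicate 3, with the others between 19.9 and 20.2. Rbmx2 was at 4.88 FPKM in Scop replicate 1, against 3.26 to 3.31. Hspb8, a heat shock gene, was at 7.65 FPKM in Scop replicate 1, against 6.61 to 6.78. Tnpo1, the nuclear importer of CIRP, was at 17.6 FPKM in ICI replicate 4, against 19.3 to 19.5. AY036118 and Gm26917 were at 34.3 and 4936 FPKM in Scop replicate 4, against 3.45 to 6.23 and 689 to 1119.6 in the other Scop libraries. The recovered fragments of ICI replicate 4 came to 37511878, against 39183384 to 39416433.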

How the results depend on the processing

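Under 20 alternatives for Rbm3, 19 for Cirbp and 15 for their ratio, every value kept its sign and moved by less than 1 SD between replicates. For Rbm3 and Cirbp the sign was fixed beforehand in many of these. Every ICI value lay above every Scop value, so leaving out libraries or changing the pseudocount could not reverse it. A replicate block cannot change the difference itself in this balanced design. With 1 library left out, the log2 difference ran from 0.32 to 0.40 for Rbm3, from 0.57 (without ICI replicate 2) to 0.83 (without ICI replicate 1) for Cirbp, and from -0.50 to -0.26 for the ratio. Under the other settings the ranges were 0.33 to 0.44, 0.55 to 0.89 and -0.47 to -0.32, and without ICI replicate 2 and Scop replicate 3 together Rbm3 had 0.33 and Cirbp 0.55. The median over all tested genes ran from -0.03 to 0.01. Genes called after adjustment, 0 higher and 0 lower, were 3 and 4 with array weights and 0 and 1 with the stromal covariate. With 1 library left out they ran from 0 to 4 higher and from 0 to 2 lower. They were 0 and 1 without Scop replicate 1 (Cebpd) or Scop replicate 3 (Cxcl2), and 4 and 2 without Scop replicate 4. The genes called without Scop replicate 4 were the ribosomal RNA-associated loci AY036118, Gm26917 and Lars2, with Malat1, Cxcl1 and S100a9. The cause of these shifts was not tested. Same-numbered samples correlated at 0.287, -0.00927, 0.138 and 0.0769 in their deviations from the group means, and 2 of 4 correlated best with their own number. The labels state no pairing, and 4 such correlations cannot decide whether the numbers pair the samples. With the replicate block the differences were 0.36 (SE 0.06) for Rbm3, 0.73 (SE 0.10) for Cirbp and -0.38 for the ratio, with 0 and 0 genes called. Depth did not limit Rbm3 or Cirbp, but Rbm3os rested on 6 to 20 fragments.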
